A study of Mus musculus with 3 samples.

Results

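The organic anion and cation transporters are the membrane carriers by which epithelia take up and release charged metabolites, hormones, toxins and drugs. Their genes were taken by symbol, as the probe sets whose single gene symbol belongs to the Slc22, Slco, Slc47, Slc17 or Slc13 families. The set was chosen with earlier results of these data known, so shares of its members are a description and not a test. This gave 81 of 45101 probe sets on the array, which read 49 of the 18194 genes named by 1 symbol. Of the 49 genes, 21 were Slc22, 15 Slco, 7 Slc17, 5 Slc13 and 1 Slc47 members.

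The samples were glomeruli isolated from nondiabetic FVB/NJ male mice sacrificed at 8 weeks, 1 whole-genome mouse expression array per mouse (n = 3). The labels name no transgene or treatment of these mice, which ate a Purina mouse diet and are called FVB controls. The series set diabetic OVE26 mice against nondiabetic FVB mice. Arrays of OVE26 mice are not analysed here. No groups were therefore compared, and each mouse is named by the replicate number in its title. RNA came from the isolated glomeruli of 1 mouse at a time, in bulk, where fewer cells of a type and less RNA per cell cannot be told apart.

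In the proximal tubule, organic anions enter the cell across the basolateral membrane by OAT1 and OAT3 (Slc22a6 and Slc22a8) in exchange for dicarboxylate, which NaDC3 (Slc13a3) carries back in. Organic cations enter by OCT carriers such as OCT2 (Slc22a2) and leave into the urine by MATE1 (Slc47a1), while phosphate and urate transporters of the Slc17 family and the sulfate carrier NaS1 (Slc13a1) sit on the apical side. Other members serve other cells, among them the prostaglandin transporter Slco2a1 and the lysosomal sialic acid exporter Slc17a5. The glomerulus itself holds no proximal tubule, which begins at its urinary pole.

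Values are GCRMA expression values on the log2 scale, in which a difference of 1 is 2-fold, and errors are SD over the 3 mice. Background was 2.58, 2.91 and 2.86 in mice 1, 2 and 3. It is the level under which 95% of 80 probe sets for receptors of the nose (olfactory and vomeronasal) lay on that array. Markers of the labelled tissue were present in every mouse, with 8 of 8 podocyte, 10 of 10 endothelial and 5 of 5 mesangial genes above background. Tubule markers were present as well, with 18 of 19 proximal tubule genes and 7 of 13 genes of later segments (loop to collecting duct) above background in each of the 3 mice.

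The 250 bases before the annotated start of 5 members are shown because their values separated the mice most, or because they encode the defining organic anion carriers. The sequences are RefSeq's for GRCm38.p6, 5′ to 3′ on the strand of the gene, and Slc17a1 has 2 annotated starts. Capitals mark GTTAAT or its reverse complement ATTAAC, one arm of the palindrome bound by HNF1, a transcription factor of kidney and liver.
Slc22a6, chr19:8617746-8617995, plus strand: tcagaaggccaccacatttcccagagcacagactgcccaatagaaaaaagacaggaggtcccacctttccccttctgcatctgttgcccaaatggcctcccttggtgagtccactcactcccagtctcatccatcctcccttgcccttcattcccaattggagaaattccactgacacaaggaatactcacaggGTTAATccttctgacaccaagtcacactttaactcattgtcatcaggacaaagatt
Slc22a8, chr19:8592932-8593181, plus strand: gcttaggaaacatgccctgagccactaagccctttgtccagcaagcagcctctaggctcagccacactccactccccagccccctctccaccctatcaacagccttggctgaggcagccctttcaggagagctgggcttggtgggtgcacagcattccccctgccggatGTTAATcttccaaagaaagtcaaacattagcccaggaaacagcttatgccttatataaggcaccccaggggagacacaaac
Slc13a3, chr2:165473198-165473447, minus strand: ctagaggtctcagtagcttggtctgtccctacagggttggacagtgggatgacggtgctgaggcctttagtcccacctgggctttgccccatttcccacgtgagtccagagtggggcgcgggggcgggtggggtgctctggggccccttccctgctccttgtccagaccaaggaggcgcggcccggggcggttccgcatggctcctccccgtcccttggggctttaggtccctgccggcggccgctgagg
Slco1a6, chr6:142186150-142186399, minus strand: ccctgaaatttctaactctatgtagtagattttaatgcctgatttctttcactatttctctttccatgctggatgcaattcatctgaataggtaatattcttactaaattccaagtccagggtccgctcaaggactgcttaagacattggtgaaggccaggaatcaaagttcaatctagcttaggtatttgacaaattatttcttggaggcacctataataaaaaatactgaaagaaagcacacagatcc
Slc17a1, chr13:23868768-23869017, plus strand: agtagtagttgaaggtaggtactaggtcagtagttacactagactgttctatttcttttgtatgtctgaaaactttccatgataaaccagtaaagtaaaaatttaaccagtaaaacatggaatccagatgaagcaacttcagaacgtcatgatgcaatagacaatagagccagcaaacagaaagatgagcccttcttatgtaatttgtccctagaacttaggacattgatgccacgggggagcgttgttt
Slc17a1, chr13:23870023-23870272, plus strand: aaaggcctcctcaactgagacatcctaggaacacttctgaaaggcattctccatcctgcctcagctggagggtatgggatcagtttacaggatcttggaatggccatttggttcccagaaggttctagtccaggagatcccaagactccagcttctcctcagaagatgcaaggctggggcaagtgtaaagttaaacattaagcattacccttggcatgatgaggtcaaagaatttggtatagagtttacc

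Of the 42 members with such a window, Slc22a6, Slc22a8, Slc22a29 and Slco1b2 held these HNF1 letters, which gave 4 of 50 windows (8%), against 6.43% of 32851 windows of all genes. The match began at position -56 in Slc22a6 and -81 in Slc22a8, counted back from the start. None of the 7 windows of members with a 2-fold range held it. Slc47a1 and Slc13a1 had no window and Slc17a1 gave 2, and 7 windows are too few to set against 6.43%. The letters CAAAGTCCA or TGGACTTTG, a motif of the factor HNF4, were in none of the 50 windows, against 0.384% of all windows. Both motifs were searched on both strands, and a match describes the letters only.

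Of the 49 transporter genes, 18 (36.7%) were above background in all 3 mice, against 58.3% of all genes. A further 8 were above it in some mice, and 23 were below it in every mouse. Of the 18, 8 had a range of at least 2-fold between mice (44.4%), against 5.94% of the 10610 genes above background in all mice. All 8 had their highest value in mouse 3, where 3.06% of all genes had both a 2-fold range and their highest value. Over the 18 members, 13 were highest in mouse 3 (72.2%, against 36.3% of all genes) and 11 were lowest in mouse 1 (61.1%, against 32.0%). The median of mouse 3 minus the mean of the other mice was 0.55 for the 18 members, and 0.01 for all genes above background. Over all 49 members without a filter it was 0.19. Because the set was chosen with earlier results of these data known, these shares and medians are a description and not a test.

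Among the 18 members above background in all mice, Slc13a3 had the widest range. Slc13a3, the basolateral carrier that loads the cell with dicarboxylate, was at 4.63, 5.78 and 8.55 in mice 1, 2 and 3, a 15.1-fold range (mean 6.32 ± 2.01). It was read by 4 probe sets, of which 2 were below background in every mouse. The remaining one was above background in mouse 3 alone, at 2.06, 2.83 and 4.78, in the same order of mice. The probe set that stood for the gene is of a type that can bind related transcripts.

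The carriers that NaDC3 supplies were above background in mouse 3 alone on the probe set with the highest mean. Slc22a6 was at 2.31, 2.59 and 4.81 in mice 1, 2 and 3. Slc22a8 was at 2.48, 2.52 and 4.59. In mice 1 and 2 both lay below background, so no fold is given for these genes or for others above it in mouse 3 only. For each gene a second probe set did not show the pattern: that of Slc22a6 was at 2.95, 2.70 and 2.76, above background in mouse 1 only, and that of Slc22a8 was below background in all mice (1.52, 1.86 and 2.06). Slco4c1, a basolateral organic anion transporter, was below background in every mouse (1.95 to 2.05).

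Organic cation transporters were also highest in mouse 3. Slc47a1, which exchanges organic cations for protons at the apical membrane, was at 2.98, 4.05 and 6.05 in mice 1, 2 and 3, an 8.41-fold range. Slc22a2, the basolateral uptake carrier, was at 2.02, 1.89 and 3.59, above background in mouse 3 only. Each of these genes was read by 1 probe set.

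Of the 3 epithelial Slc17 phosphate and urate transporter genes, 2 were above background, and both were highest in mouse 3. Slc17a1, a phosphate transporter gene whose human counterpart NPT1 carries urate, was at 4.32, 5.23 and 7.98, a 12.6-fold range. Slc17a3, the gene of NPT4, was at 4.73 in both mice 1 and 2 and at 7.30 in mouse 3, a 5.94-fold range. The values of mice 1 and 2 were identical in the deposited table. Slc17a2 was below background in all mice (2.45 to 2.54). The sulfate transporter gene Slc13a1 was at 2.93, 4.0 and 4.48, a 2.91-fold range, and a second probe set was below background. The apical dicarboxylate and citrate carrier Slc13a2 lay below background, with 1.80, 2.03 and 2.32.

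Among the organic anion transporting polypeptides, 4 of 15 were above background in all mice. Slco1a6, a kidney transporter of mice, was at 3.77, 4.27 and 7.28 in mice 1, 2 and 3, an 11.4-fold range. Its relative Slco1a1, which is known in mouse kidney for higher expression in males, was at 1.83, 2.26 and 3.72 and was above background in mouse 3 only. A second probe set of Slco1a1 was below background in all mice (2.37, 2.31 and 2.59). The other 3 above background had no 2-fold range. Slco2a1, which clears prostaglandins, was at 10.89, 10.87 and 10.64 (mean 10.80 ± 0.14). All 4 of its probe sets were above background, with ranges of 1.08-fold to 1.60-fold, and mouse 3 was highest on only 1 of them. Slco3a1, a transporter of prostaglandins and thyroxine, was at 10.02, 9.64 and 10.01 (mean 9.89 ± 0.22), and its 3 probe sets each had a different highest mouse. Slco4a1, a thyroid hormone transporter, was at 4.31, 4.48 and 4.87 (mean 4.55 ± 0.28), on a probe set of a type that can bind related transcripts. Its second probe set was lowest in mouse 3, at 2.66, 2.77 and 2.30, and above background in mouse 1 only.

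The Slc22 family held both kinds of gene. Slc22a22, which encodes a prostaglandin-specific organic anion transporter of mouse kidney, was at 1.83, 2.27 and 5.30, with mouse 3 alone above background. Slc22a30, a rodent member of unsettled substrate, was at 3.03, 3.53 and 4.86. Slc22a18, an imprinted gene of unsettled substrate, was at 2.78, 2.97 and 4.13, and its second probe set, below background, was at 2.55, 2.55 and 2.74. Slc22a12, the urate reabsorption carrier URAT1, was at 3.26, 3.69 and 4.06, a range of 1.74-fold, and its second probe set was below background in all mice.

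Carnitine carriers were mixed. Slc22a5, the sodium-dependent carnitine transporter OCTN2, was at 8.77, 8.96 and 9.38 in mice 1, 2 and 3 (mean 9.04 ± 0.31), highest in mouse 3 but by less than 2-fold. Its second probe set was below background in all mice. Slc22a21, the gene of OCTN3, a carnitine carrier of mice, was lowest in mouse 3, at 3.62, 3.69 and 3.26. The ergothioneine transporter gene Slc22a4 lay below background in all mice (1.71 to 2.44).

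The remaining genes above background had ranges of 1.13-fold to 1.52-fold. Slc17a5 was at 8.45, 8.27 and 8.88 (mean 8.53 ± 0.31). Slc22a23, an orphan member, was at 4.76, 4.92 and 5.33. Slc22a15 was at 3.68, 3.30 and 3.55, and Slc22a17, the gene of a receptor for the iron-binding protein lipocalin-2, was at 3.11, 3.20 and 3.02 (mean 3.11 ± 0.09), the narrowest range of the 18 at 1.13-fold. Values near background were not confined to these genes. Of the 8 members with a 2-fold range, Slc22a18, Slc13a1, Slc47a1 and Slc22a30 lay at 2.78, 2.93, 2.98 and 3.03 in mouse 1, where background was 2.58. None of these 4 was above background in all mice when it was set at the 99th percentile, which left 4 members with a 2-fold range. Of the 23 members with several probe sets, only 2, Slco2a1 and Slco3a1, had more than 1 of them above background in all mice, so for the other genes the values rest on 1 probe set.

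**Figure D1:**
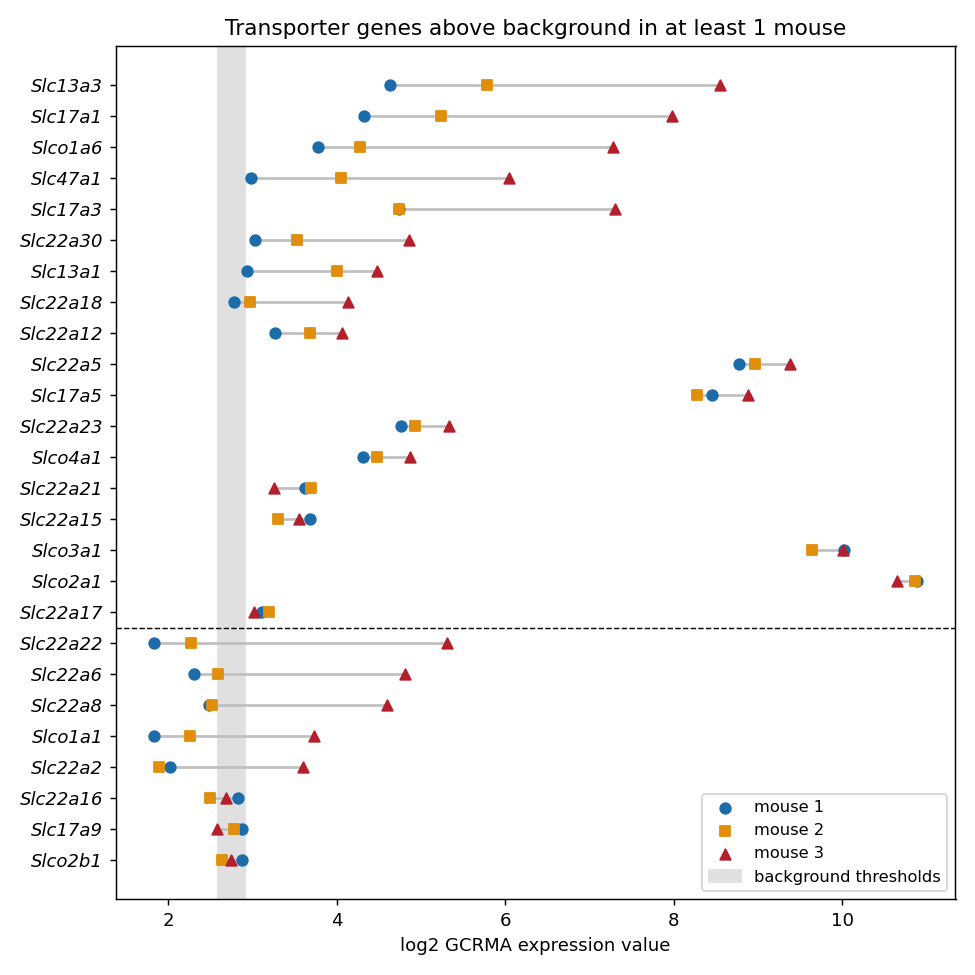
Log2 GCRMA expression value (horizontal axis) of the 26 transporter genes above background in at least 1 mouse, with 1 point per mouse and a grey line from the lowest to the highest mouse; the grey band spans the background thresholds of 2.58 to 2.91, and genes under the dashed line were not above background in all mice. Mouse 3 (triangle) is the highest point of the upper 13 genes, and the point of mouse 1 for Slc17a3 lies under that of mouse 2.

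In all, 5 of the 49 members (10.2%) were above background in mouse 3 and in no other mouse, against 0.572% of all genes: Slc22a22, Slc22a6, Slc22a8, Slco1a1 and Slc22a2. For Slc22a6, Slc22a8 and Slco1a1 a second probe set was not above background in mouse 3. The other 3 members above background in some mice were the carnitine carrier gene Slc22a16, the vesicular nucleotide transporter gene Slc17a9 and Slco2b1, and they passed only in mouse 1, at 2.83, 2.88 and 2.87, where the threshold was the lowest of the 3. The 23 members below background in every mouse had values of 1.58 to 2.65 and a median SD of 0.0894. Of these 23, 12 were highest in mouse 3, and the like count over all genes below background was not made. Over all 49 members without a filter 30 were highest in mouse 3, against 5918 of all 18194 genes. The order of mice below background is not a measure of expression. The 23 members include Slc22a7, the gene of the organic anion transporter OAT2, the liver genes Slco1b2 and Slc13a5, and the blood-brain barrier genes Slco1a4 and Slco1c1. They also include the vesicular glutamate transporters Slc17a6 and Slc17a7 of neurons, and the testis genes Slco6b1, Slco6c1 and Slco6d1.

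No gene passed the test for excess variance between mice, in which limma set each gene's variance against that fitted over genes of like level. Of 10610 genes 0 (0%) were called after Benjamini-Hochberg adjustment at 0.05, and the smallest adjusted p of a transporter was 0.60 (Slc13a3). At an unadjusted p under 0.05 there were 8 of the 18 members (44.4%) and 493 genes in all (4.65%). The 8 are those with the 2-fold range, and their unadjusted p ran from 0.0021 for Slc13a3 to 0.037 for Slc22a18. The test was weak: with 2 residual degrees of freedom, a lone gene needed an SD 64.3 times the fitted one to be called. The count of 0 therefore does not show that the mice were alike. By SD, Slc13a3 ranked 19 of 10610 genes, Slc17a1 ranked 25, Slco1a6 ranked 26, Slc47a1 ranked 45 and Slc17a3 ranked 56, as a description. Without mouse 3, 3 of 18 members had a 2-fold range (Slc13a1, Slc13a3 and Slc47a1), against 2.97% of 10750 genes. In that setting 0 members had an unadjusted p under 0.05, the smallest being 0.052, against 373 of the 10750 genes.

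Most of the difference lay between mouse 3 and mouse 2. For the 8 members with a 2-fold range the median was 2.28 for mouse 3 minus mouse 2 and 0.71 for mouse 2 minus mouse 1. In 7 of the 8, mouse 2 was above mouse 1, and Slc17a3 was tied. Slc13a1 was the exception in size, with 0.47 for mouse 3 minus mouse 2 and 1.07 for mouse 2 minus mouse 1. Slco1a6 had 3.01 and 0.50 for the same differences, and Slc47a1 had 2.0 and 1.08.

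**Figure D2:**
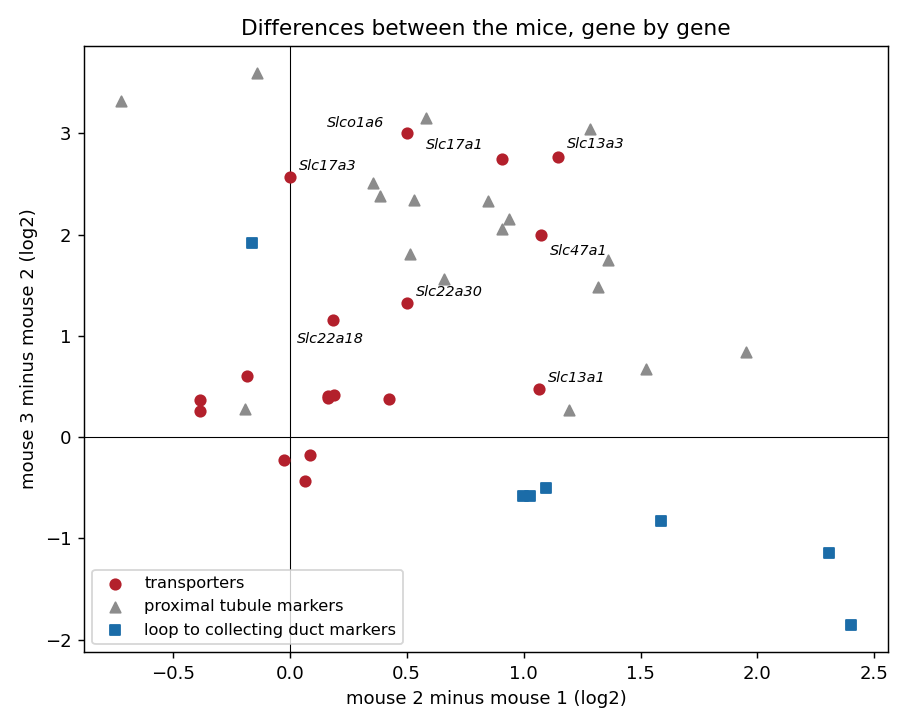
Difference of mouse 2 minus mouse 1 (horizontal axis, log2) and of mouse 3 minus mouse 2 (vertical axis, log2) for each gene above background in all mice: transporters (circles, the 8 with a 2-fold range named), proximal tubule markers (triangles) and markers of the later tubule, from loop to collecting duct (squares). Of the 8 named transporters 7 lie above 1 on the vertical axis, all but Slc13a1, while 6 of the 7 squares lie below 0 on the vertical axis.

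Members that neighbour each other in RefSeq gene order did not all share the pattern. Of 49 members 48 matched by gene ID, all but Slco6b1, and 23 lay in 6 runs, in which successive members were at most 3 places apart among protein-coding genes. In the longest run, the order was Slc22a19, Slc22a26, Slc22a27, Slc22a29, Slc22a30, Slc22a8 and Slc22a6. The first 4 were below background in all mice, while the last 3 were above it in mouse 3, where each was highest. Of these, Slc22a30 was above background in all mice, and Slc22a8 and Slc22a6 were above it in mouse 3 only and on 1 of their 2 probe sets. Slc17a3 and Slc17a1, which were higher in mouse 3 than the mean of mice 1 and 2 by 2.57 and 3.21, lie in a run with Slc17a2, which was below background in all mice. In the run of Slco1 genes, Slco1a6 was higher in mouse 3 by 3.26. Its neighbour Slco1a1 was above background in mouse 3 only and on 1 of its 2 probe sets. Slco1c1, Slco1b2, Slco1a4 and Slco1a5 were below background in all mice.

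Genes that work with these carriers were read from 3 lists. Among scaffolds and transcription factors of proximal tubule transporters, 5 of 6 passed background in each mouse, and 3 of the 5 had a 2-fold range. Pdzk1, a scaffold that binds apical transporters, was at 3.99, 4.46 and 6.82 in mice 1, 2 and 3, a 7.08-fold range. The related scaffolds Slc9a3r1 (10.42, 10.27 and 10.40) and Slc9a3r2 (11.50, 11.54 and 11.59) had ranges under 1.12-fold.

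Efflux pumps showed no 2-fold range in any of the 6 of 9 genes above background in all mice. Abcc4, which exports organic anions and cyclic nucleotides, was at 8.82, 8.29 and 8.98, and Abcg2, a urate and drug exporter, was at 9.27, 9.25 and 10.17. Abcc2 was below background in all mice. Of 9 genes for driving ions, partner metabolites and conjugation, all passed background in each mouse. A 2-fold range was found for 7, and mouse 3 was the highest for 7. Slc4a4, the basolateral sodium bicarbonate cotransporter gene, was at 4.82, 4.94 and 8.09. The carbonic anhydrase gene Car4 was at 3.57, 3.44 and 4.75. Slc9a3, the sodium-proton exchanger gene, was highest in mouse 2 (4.64, 6.76 and 5.85).

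Markers of the proximal tubule also differed between the mice. Of 18 such genes above background in all mice, none of them a transporter of this set, 17 had a 2-fold range. Mouse 3 gave the highest value for all 18 and mouse 1 the lowest for 15. The summed linear level of all 19 was 7372, 8575 and 20573 in mice 1, 2 and 3, and no marker was below background in every mouse. The marker without a 2-fold range, Cyp4b1, was at 12.24, 12.05 and 12.33 in mice 1, 2 and 3. It was the brightest of the list in mice 1 and 2 and so weighed most on their sums. The median of mouse 3 minus the mean of the other mice was 0.55 for the 18 transporters above background in all mice and 2.54 for these 18 markers. The lists were not tested against each other. Markers of the later tubule had a median of -0.03, with 6 of 7 highest in mouse 2. They varied between the mice as well: 6 of the 7 had a 2-fold range, and 6 were lowest in mouse 1. The summed linear level of all 13 was 10531, 23158 and 15511 in mice 1, 2 and 3. Podocyte, endothelial and mesangial markers had medians of -0.08, -0.08 and 0.03. Mouse 3 was the lowest for 6 of 8 podocyte genes, and mouse 1 the highest for 8 of 10 endothelial genes. A 2-fold range was found for 1 podocyte gene and for no endothelial or mesangial gene. Leukocyte markers had a median of -1.76 over the 6 of 9 genes above background in all mice. As a measure of RNA integrity, the array's control probe sets at the 3′ end of actin exceeded those at its 5′ end by 1.49, 1.81 and 2.05 in mice 1, 2 and 3, and for Gapdh by 0.48, 1.08 and 0.92. The part of tubule RNA and of RNA quality in the differences of the transporters was not tested.

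**Figure D3:**
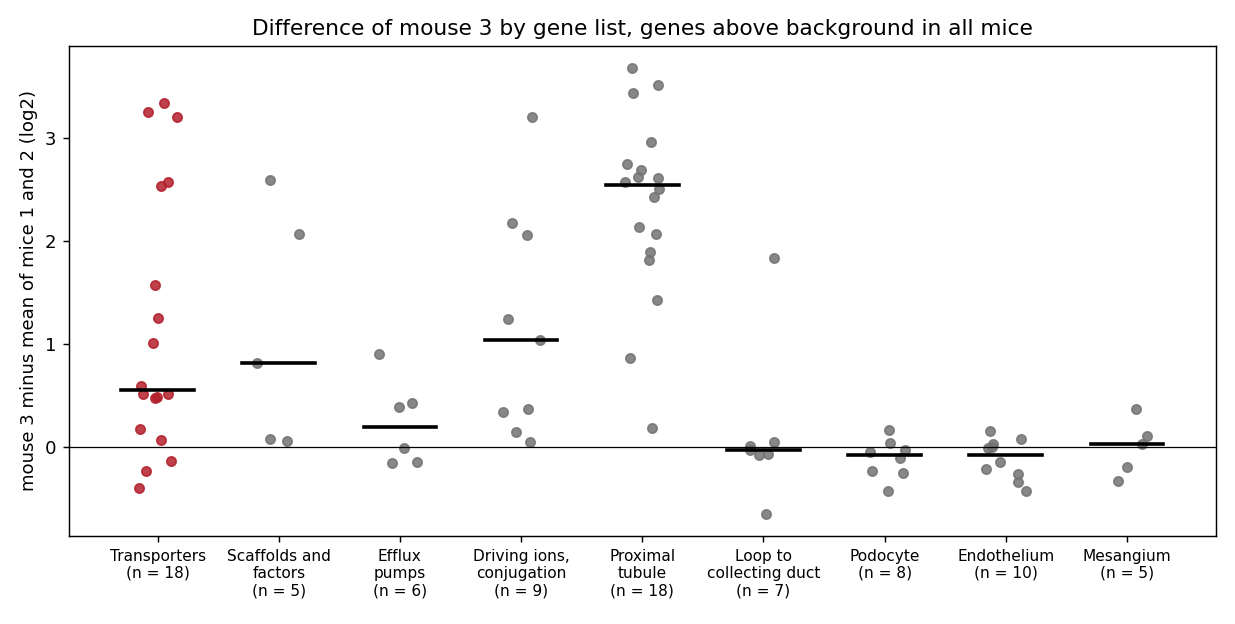
Mouse 3 minus the mean of mice 1 and 2 (vertical axis, log2) for genes above background in all mice, with 1 point per gene, a black bar at the median of each list and n the number of genes. The transporters spread from -0.40 (Slc22a21) to 3.34 (Slc13a3), with their median at 0.55, and the medians of the glomerular lists lie between -0.08 and 0.03.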

How the data were processed

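Glomerular RNA of 3 mice was measured on 1 array each. The deposited values, in a table of 45101 probe sets, are log2 expression values, and per the submitters' processing notes they were summarised with GCRMA, whose version and the set of arrays normalised together are not given in the sources used here. The log2 scale was inferred from their range of 0.67 to 14.76. The values were used as deposited.

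Gene names came from the platform annotation, in which 34958 probe sets had 1 gene symbol and 932 had several, which were not used, and 9211 were not listed there. The probe set with the highest mean stood for a gene with several (23 of 49 members). Background came from 80 receptor probe sets at the 95th percentile of each array. A gene entered the test when above it on all 3 arrays. Excess variance was tested in limma 3.58.1 (R 4.3.3) with squeezeVar (robust, with the mean as covariate) and the upper tail of the F distribution, with Benjamini-Hochberg adjustment over 10610 genes. The step was checked on simulated data with known answers, and its low power is given beside its result. The number of arrays, and signal over background, limit the precision.

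The members and lists were chosen with earlier results of these data known. Every member could be named. Other genes named are the first 3 of a list, by list order, and Cyp4b1, which weighed on a sum. Replicates are separate mice. Alternatives were the mean over probe sets, every probe set on its own, the 99th percentile, quantile normalisation, median centring, no filter, each mouse left out, and a plain variance fit.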

Additional observations from a re-analysis of the deposited data

How the results depend on the processing

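With the 99th percentile of the receptor probe sets as background, 10 members were above it in all mice (against 18), 4 had a 2-fold range (Slc13a3, Slc17a1, Slc17a3 and Slco1a6, against 8) and 8 were highest in mouse 3 (against 13), since fewer genes were tested. With the mean over probe sets 5 had a 2-fold range, and Slc13a3, Slc13a1 and Slc22a18, which have probe sets below background, were no longer among them. With no filter on dim genes 13 had a 2-fold range, 30 of 49 were highest in mouse 3, and the median difference of mouse 3 was 0.19. Over all genes without that filter, 5918 of 18194 were highest in mouse 3. Of all genes tested, 5.02% had a 2-fold range at the 99th percentile and 4.28% with the mean over probe sets. Without a filter the share was 4.21%. Leaving out each mouse in turn gave 3 to 8 members with a 2-fold range, the lowest without mouse 3. The share of all tested genes in these settings was 2.97% to 3.42%. Quantile normalisation and centring changed no count of members, and the variance test called no gene under any of the 10 alternatives run for it. The smallest adjusted p of a member ranged from 0.38 to 0.95 over these (limma). No paired analysis was possible because the samples form 1 group.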

Other observations

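A probe set that the platform annotation assigns to both Slc22a30 and Slc22a29 was left out of the set, which takes probe sets of 1 symbol. It was at 1.98, 2.29 and 3.37 in mice 1, 2 and 3, above background in mouse 3 only. The probe set of Slc22a30 alone was at 3.03, 3.53 and 4.86, and that of Slc22a29 alone was at 1.95, 1.93 and 2.23.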
